A study of Mus musculus with 18 samples.

Results

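The 42 genes described here build and run the skeletal muscle fibre, and were taken by symbol from the 18585 genes of the deposited table. They comprise 10 thin filament genes, 12 thick filament genes, 8 genes of the Z-disc, titin and desmin, 6 of calcium handling, and 6 of metabolism, oxygen storage and membranes. All 42 were found, and all 42 passed the filter for testing, which asked for a normalized count of at least 10 in at least 4 libraries. The samples were forepaws of C57BL/6 mice, which hold muscle beside skin, bone, cartilage and joint tissue. Whole-tissue RNA was sequenced with CEL-seq, a method that barcodes RNA at reverse transcription and reads the 3' end of transcripts. There were 4 groups: WT control (4 libraries), Sema3b-/- control (4), WT arthritis (5) and Sema3b-/- arthritis (5), where Sema3b encodes semaphorin 3B, a secreted guidance protein. The labels do not give the arthritis model, the day of sampling, age or sex, nor whether a library is 1 mouse, so the p-values measure only the spread between these libraries, which may in part be technical.

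Muscle contracts when myosin heads of the thick filament pull on actin of the thin filament, under the control of calcium that troponin senses. Calcium leaves the sarcoplasmic reticulum through the ryanodine receptor and is pumped back by the SERCA ATPases. Fast and slow fibres use different genes for many of these parts, so that the fast and the slow isoform of a protein can be compared within 1 library. Mouse limb muscle consists mostly of fast fibres, and slow fibres rely more on oxidative metabolism. In whole paws, fewer muscle cells and less RNA per muscle cell cannot be told apart.

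Libraries held 1732783 to 19464892 reads, and Sema3b was at 44.2 to 67.5 normalized counts in WT control, 23.7 to 66.7 in WT arthritis and at most 7.20 in Sema3b-/- libraries. The shallowest library, Sema3b-/- control replicate 1, holds so few reads that 3 reads are worth 12.1 normalized counts there and 1.31 to 4.44 elsewhere. Of 8 defining skeletal muscle markers all were present in every group. All 8 are themselves among the muscle genes described here, so their presence is not a separate check of tissue identity. Of 6 heart markers, 5 stayed below 10 normalized counts in every library. By Xist and Y-linked genes the 4 WT control libraries were female, Sema3b-/- control had 2 females (replicates 1 and 4), WT arthritis 1 (replicate 1) and Sema3b-/- arthritis 4 (all but replicate 5). Arthritis replicates whose titles do not begin with Joint were WT 5 and Sema3b-/- 1 and 2. All control titles begin with MI and no arthritis title does, so the title word and arthritis cannot be told apart. The column used for Sema3b-/- arthritis replicate 5 carries a control suffix in its name. Sema3b-/- control replicates 3 and 4 share 1 inner name in their titles, but by Xist and Y-linked genes replicate 3 was male and replicate 4 female. Counts of all 32 pairs of libraries within groups differed beyond sampling noise.

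The 42 muscle genes together took 3.97 ± 0.390% of normalized counts in WT control (SD, n = 4), 4.66 ± 1.59% in Sema3b-/- control (SD, n = 4), 2.60 ± 1.86% in WT arthritis (SD, n = 5) and 1.78 ± 0.922% in Sema3b-/- arthritis (SD, n = 5). Single arthritis libraries stood at 4.07, 4.94, 0.401, 1.56 and 2.04% in WT and 2.69, 0.401, 2.48, 1.96 and 1.38% in Sema3b-/-. All 5 Sema3b-/- arthritis libraries lay below all 8 control libraries, whereas WT arthritis replicates 1 and 2 reached the control range of 3.23 to 6.36%. Of the 42 genes, 37 had their lowest WT arthritis level in replicate 3, and 41 had their lowest Sema3b-/- arthritis level in replicate 2. These 2 libraries also held the smallest share of the 7 epidermis markers, 0.0451% and 0.0491%, against 0.897 to 3.91% in control and 0.188 to 1.31% in the other arthritis libraries. Markers of some other tissues were lower in arthritis too. The 6 peripheral nerve markers took 0.0279 to 0.0503% of counts in the arthritis libraries and 0.0606 to 0.0936% in the controls, with no overlap. In WT, without overlap, the 8 smooth muscle markers took 0.0483 to 0.0636% in arthritis and 0.0849 to 0.0973% in control, and the 6 cartilage markers 0.0256 to 0.0785% and 0.0997 to 0.148%. In Sema3b-/- the smooth muscle share was 0.0690 to 0.0736% in arthritis and 0.0543 to 0.0910% in control, and the cartilage share 0.0171 to 0.0435% and 0.0427 to 0.246%. The part of tissue makeup in the muscle results was not tested.

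**Figure D1:**
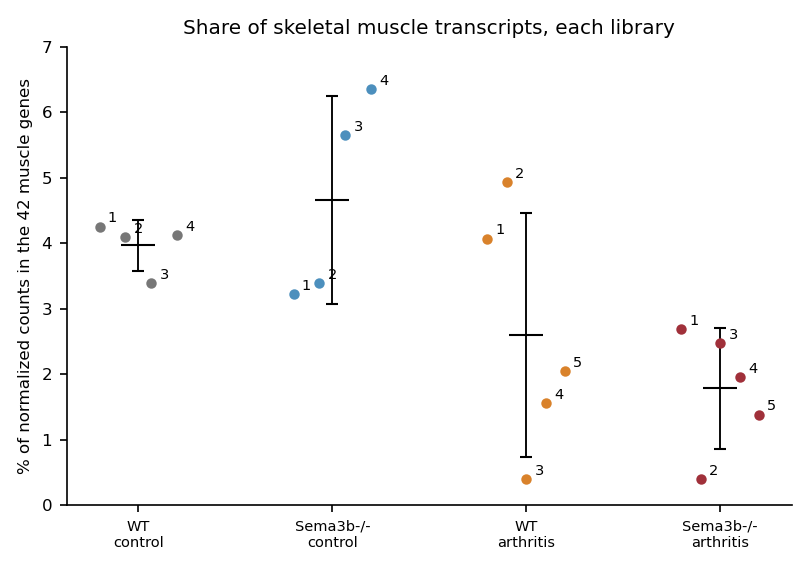
Share of all normalized counts that fell on the 42 muscle genes (y axis, %), 1 point per library with its replicate number, by group (x axis); the cross bar and whiskers are the group mean and SD. WT control libraries lie between 3.39 and 4.26%, while WT arthritis spans 0.401 to 4.94% and Sema3b-/- arthritis 0.401 to 2.69%.

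Levels of the muscle genes varied far more among arthritis libraries than among WT control libraries. The median SD of a member on the log2(normalized count + 1) scale was 0.23 in WT control, 0.66 in Sema3b-/- control, 1.62 in WT arthritis and 1.28 in Sema3b-/- arthritis. Over all 13809 genes tested the median SD was 0.25, 0.42, 0.41 and 0.34 in the same order. In WT arthritis 94.1% of tested genes had a smaller SD than the median muscle gene. Fold changes of muscle genes in arthritis within a genotype carry standard errors of 0.12 to 0.95, with a median of 0.77. The fit shares the variance of a gene over all groups, so these do not reflect the spread of only the groups compared.

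**Figure D2:**
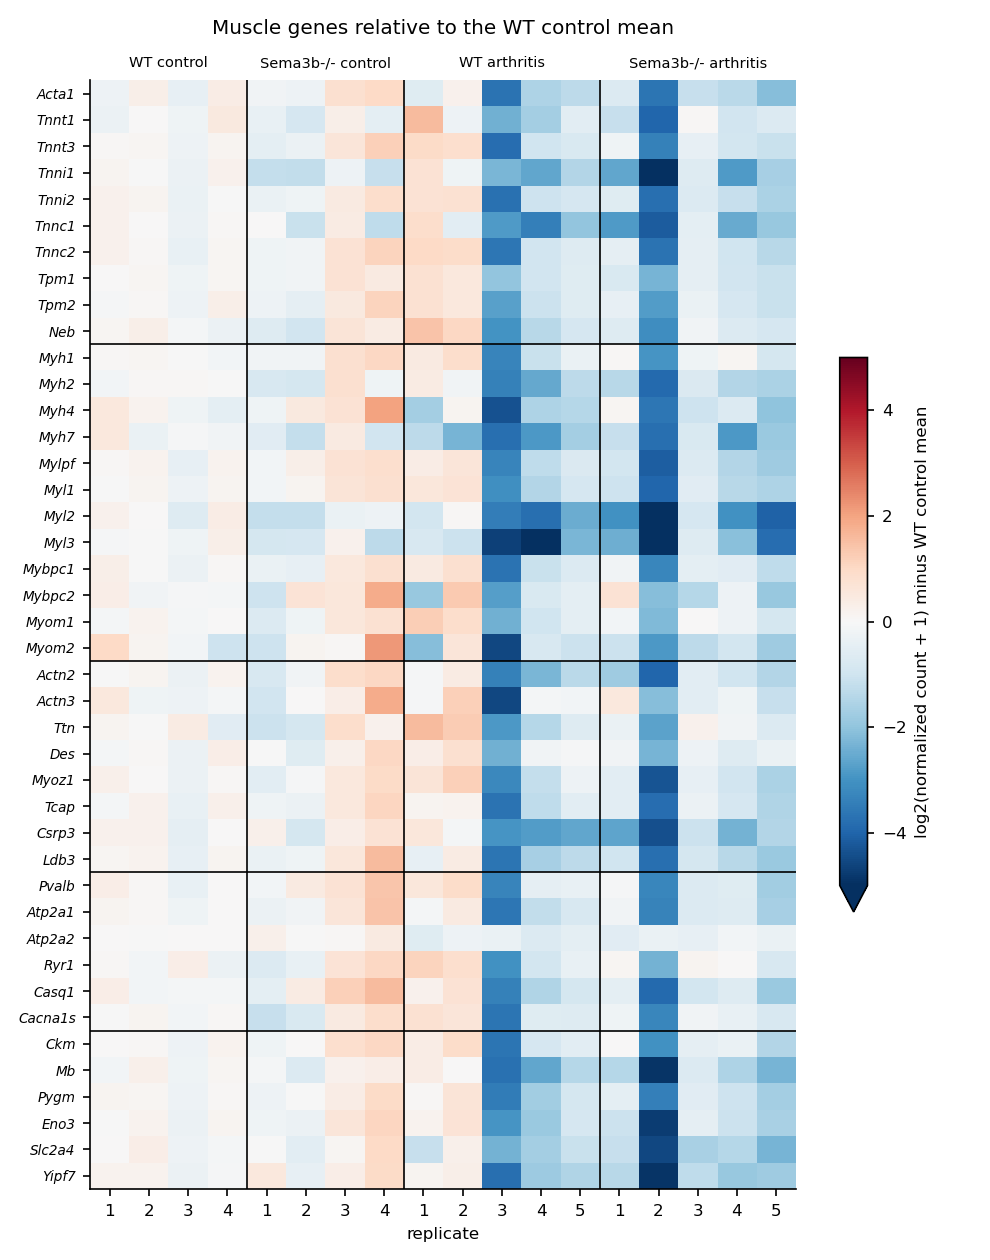
Each of the 42 muscle genes (rows, in the order thin filament, thick filament, Z-disc with titin and desmin, calcium handling, metabolism) in each library (columns, grouped) as log2(normalized count + 1) minus the WT control mean; colours end at -5 and 5. WT arthritis replicate 3 and Sema3b-/- arthritis replicate 2 are dark blue in nearly every row, and Atp2a2 is the row with the least colour.

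In WT forepaws, all 42 muscle genes had a negative log2 fold change in arthritis with limma (median -0.89, range -2.86 to -0.30), beside a median of -0.02 over all genes tested. Signs and size depended on the method: 35 of 42 were negative with edgeR or DESeq2 on the recovered reads (median -0.39 with both), and 39 of 42 with sex as a term (median -0.54). With limma only Atp2a2 passed an adjusted p of 0.05 over all genes, 1 of 42 members, in a comparison where 1.58% of tested genes were called lower. There were 5 members with an unadjusted p under 0.05, namely Atp2a2, Myh7, Myl3, Myl2 and Myh4. The share of all tested genes under that unadjusted level was not counted for any comparison. Groups did not overlap for 3 members (Myh7, Myl3 and Atp2a2), and 4.71% of tested genes were lower in this way. Myh7 passed the filter only through control libraries, and without it these counts are 4 and 2. Without WT arthritis replicate 3 the median member stood at -0.37 and 31 of 42 were negative.

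Sema3b-/- forepaws gave larger differences in the same direction. All 42 fold changes were again negative (median -1.72, range -2.59 to -0.52, median of all genes -0.01). An unadjusted p under 0.05 was found for 24 members, or 23 of 41 without Myh7, and the share of all genes was not counted. Slc2a4, Yipf7, Csrp3 and Atp2a2 fell, 4 of 42 members, where 5.55% of all tested genes were called lower. Arthritis and control libraries did not overlap for 14 members, against 6.11% of all tested genes, and these were spread over thin filament, thick filament, Z-disc, calcium and metabolic genes. The median was -1.18 without Sema3b-/- arthritis replicate 2. Because the fit shares each gene's variance over all groups, libraries outside this comparison also move its calls. The number called depended on single libraries, with 12 without WT arthritis replicate 3, 7 without WT arthritis replicate 2, 1 without Sema3b-/- control replicate 4, and 2 without any 1 of these: each WT control library, Sema3b-/- control replicate 1 or 3, Sema3b-/- arthritis replicate 2, 4 or 5, or the fifth WT arthritis library. The share of all genes called in each of these fits is not given here.

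Averaged over both genotypes, arthritis went with lower levels of 15 of 42 muscle genes, where 10.9% of all tested genes were called lower. The median member had a log2 fold change of -1.36 (-0.91 with edgeR, -0.92 with DESeq2 and -0.82 without both libraries low in muscle genes). An unadjusted p under 0.05 was found for 28 members, or 27 of 41 without Myh7, and the share of all genes was not counted. The 15 called were Acta1 and Tnnc1 of the thin filament, Myh7, Myh4, Myl2, Myl3, Mylpf and Myom2 of the thick filament, Csrp3, Ldb3 and Actn2 of the Z-disc, Atp2a2 of calcium handling, and Slc2a4, Yipf7 and Mb of the last group. Without Myh7, which passed the filter only through controls, the count is 14 of 41. Only for Atp2a2 did all 10 arthritis libraries lie below all 8 control libraries, which held for 0.956% of all tested genes. With Myh7 where it passed the filter, the count was 23 without WT arthritis replicate 2 and 9 without WT control replicates 1 or 3 or Sema3b-/- control replicate 3. It was 9 with sex as a term and 4 with a term for the title word, or 8 and 3 without Myh7. The share of all genes called in each of these fits is not given here. Calls of Tnnc1, Mylpf, Actn2, Mb and Myom2 were lost on leaving out any 1 of 13, 13, 12, 11 and 9 libraries, with adjusted p of at most 0.0819. Over all 29 alternatives these calls were lost in 20, 18, 17, 16 and 13, with adjusted p of at most 0.146.

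Genotype made no called difference to muscle genes. Between Sema3b-/- control and WT control 0 of 42 were called by limma (0.0145% of all genes), with 0 at an unadjusted p under 0.05 and 0 by edgeR or DESeq2. The same counts of 0 were found between the 2 arthritis groups (0.0217% of all genes) and for the interaction of genotype and arthritis (0% of all genes). The 0 at an unadjusted p holds for the main limma fit only. In that fit standard errors between controls had a median of 0.82 and include the larger spread of the arthritis libraries. Of 41 members without Myh7, 11 between arthritis groups were under 0.05 without WT arthritis replicate 3. There were 6 without both libraries low in muscle genes and 4 with DESeq2. The interaction had at most 3, and the controls 3 in a fit of those 2 groups alone. The members' median was 0.22 in controls, -0.45 between arthritis groups and -0.62 for the interaction, and these medians moved with single libraries. In controls it was 0.41, 0.38, 0.15 and -0.05 without Sema3b-/- control replicates 1, 2, 3 and 4. Between arthritis groups it was -0.14, -0.08 and -1.03 without WT arthritis replicates 1, 2 and 3, and 0.03 without Sema3b-/- arthritis replicate 2. For the interaction it was -0.35, -0.26, -1.21 and -0.10 without the same 4 libraries, and -0.39 without Sema3b-/- control replicate 4. With edgeR the medians were -0.71 between arthritis groups and -0.999 for the interaction, and with sex as a term 0.48, -0.77 and -1.28 in the order first given. Standard errors of the interaction ran from 0.17 (Atp2a2, at -0.06) to 1.35, with a median of 1.10. No difference between the arthritis effects of the genotypes was detected, and the larger median in Sema3b-/- forepaws is not shown to differ from that in WT.

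**Figure D3:**
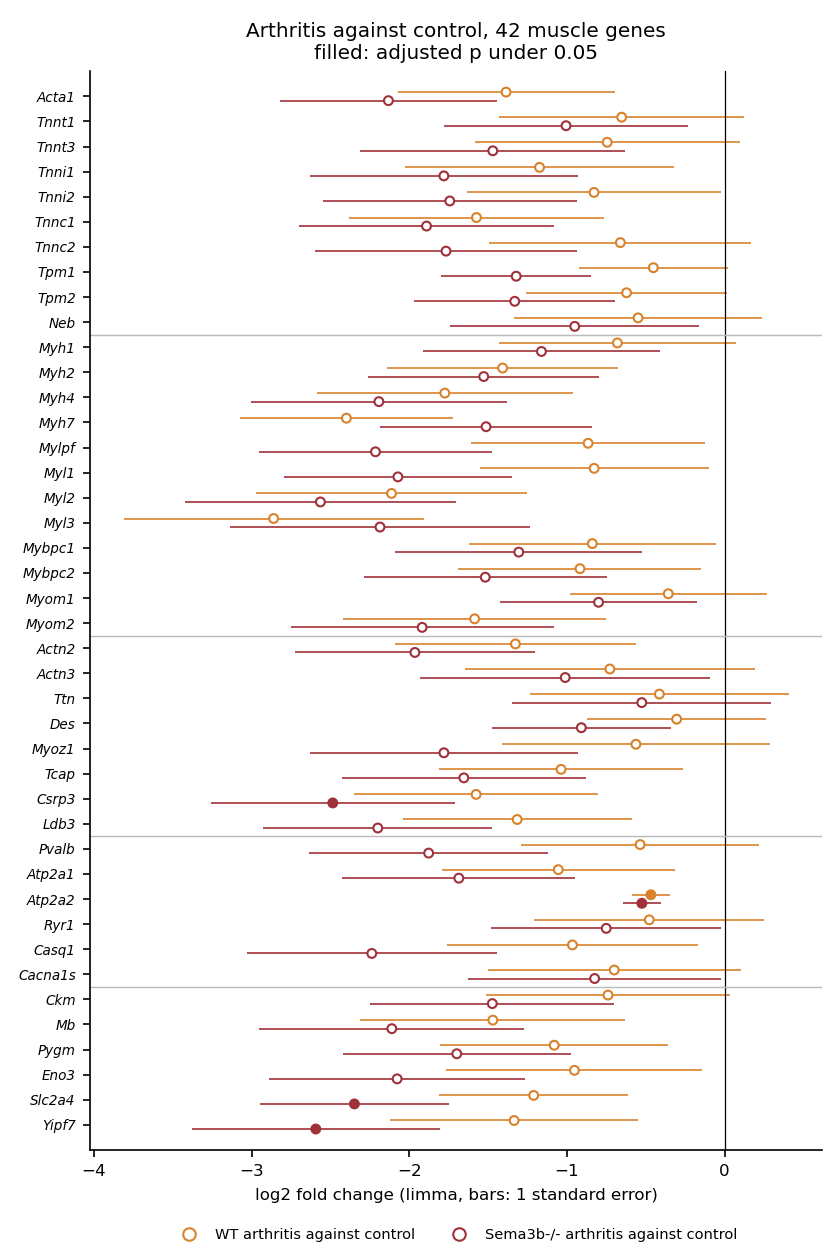
Log2 fold change of arthritis against control of the same genotype (x axis, limma, bars 1 standard error) for each muscle gene (y axis, in the order of the heat map), WT in orange and Sema3b-/- in red, filled where the adjusted p is under 0.05. All 84 points lie below 0, and the filled ones are Atp2a2 in both genotypes and Csrp3, Slc2a4 and Yipf7 in Sema3b-/-.

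Promoter sequences of 6 of the 15 genes are shown because these genes were lower together in arthritis and include fast (Myh4, Mylpf), slow (Myh7, Tnnc1) and shared (Acta1, Csrp3) genes. Each is the 250 bases before a RefSeq transcription start on GRCm38.p6, 5' to 3' on the gene's strand. Capitals mark matches on either strand to the CArG box, which serum response factor binds, the MEF2 box, the E-box CANNTG, which MyoD-family factors bind, and the letters TATAAA, which mark many start sites.
Acta1, chr8:123894776-123895025, minus strand: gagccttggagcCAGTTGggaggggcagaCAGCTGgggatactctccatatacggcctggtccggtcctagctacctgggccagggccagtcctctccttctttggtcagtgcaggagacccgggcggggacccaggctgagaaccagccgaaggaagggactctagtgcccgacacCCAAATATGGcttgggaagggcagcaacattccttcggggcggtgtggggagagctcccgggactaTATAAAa
Csrp3, chr7:48848052-48848301, minus strand: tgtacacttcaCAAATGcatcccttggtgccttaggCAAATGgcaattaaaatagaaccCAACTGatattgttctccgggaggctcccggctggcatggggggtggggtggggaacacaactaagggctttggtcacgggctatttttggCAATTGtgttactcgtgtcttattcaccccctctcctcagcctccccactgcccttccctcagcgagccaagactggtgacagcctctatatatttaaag
Myh4, chr11:67237562-67237811, plus strand: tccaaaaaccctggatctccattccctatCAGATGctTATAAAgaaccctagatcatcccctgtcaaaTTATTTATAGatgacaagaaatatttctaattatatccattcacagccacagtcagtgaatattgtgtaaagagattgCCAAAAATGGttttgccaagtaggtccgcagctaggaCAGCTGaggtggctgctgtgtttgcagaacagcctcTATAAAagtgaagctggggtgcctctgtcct
Mylpf, chr7:127211358-127211607, plus strand: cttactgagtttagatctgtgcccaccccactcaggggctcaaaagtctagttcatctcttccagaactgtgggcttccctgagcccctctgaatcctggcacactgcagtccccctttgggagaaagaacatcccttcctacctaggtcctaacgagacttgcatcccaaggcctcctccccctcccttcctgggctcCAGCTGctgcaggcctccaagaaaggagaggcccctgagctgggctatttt
Myh7, chr14:54994627-54994876, minus strand: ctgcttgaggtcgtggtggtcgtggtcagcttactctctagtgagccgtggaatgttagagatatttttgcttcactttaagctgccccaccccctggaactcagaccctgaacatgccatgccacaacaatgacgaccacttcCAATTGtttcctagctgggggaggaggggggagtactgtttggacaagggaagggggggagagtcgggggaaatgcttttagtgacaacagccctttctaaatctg
Tnnc1, chr14:31208062-31208311, plus strand: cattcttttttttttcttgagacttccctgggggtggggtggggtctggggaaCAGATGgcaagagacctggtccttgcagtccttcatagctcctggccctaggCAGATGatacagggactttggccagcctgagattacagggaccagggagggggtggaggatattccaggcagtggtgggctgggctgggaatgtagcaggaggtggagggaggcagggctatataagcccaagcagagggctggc

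Acta1 carries 1 CArG box, 2 E-boxes and 1 TATAAA. Myh4, the fast IIb myosin gene, carries 1 CArG box, 1 MEF2 box, 2 E-boxes and 3 matches to TATAAA, of which 1 lies inside the MEF2 box. Csrp3 has 4 E-boxes, Tnnc1 has 2, Mylpf and Myh7 have 1 each, and these 4 windows hold none of the other letters. RefSeq's table had 40 such windows for 32 of the 42 muscle genes. A CArG box stood in 6 of the 40 windows (15% of windows, 5 genes) and in 1.47% of all 32851 windows of the table. MEF2 boxes were in 4 windows (10%) against 2.92% of all, E-boxes in 34 (85%) against 66.2%, and TATAAA in 6 (15%) against 12.4%. These are matches of letters, and no binding was measured.

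Thin filament genes gave 2 calls in the mean over genotypes, Acta1 and Tnnc1, among 10 members with a median of -1.16. In that comparison 10.9% of all tested genes were called lower. Acta1 (chr8:123891769-123894751, minus strand, 7 exons) encodes the actin of adult skeletal muscle. Acta1 stood at 13237, 19628, 12042 and 20372 in WT control, 13996, 13293, 27528 and 31782 in Sema3b-/- control, 10545, 18239, 1242, 5414 and 6415 in WT arthritis and 10000.4, 1249.9, 7128, 6239.5 and 3625 in Sema3b-/- arthritis. Every Sema3b-/- arthritis library lay below every Sema3b-/- control library, while WT arthritis replicate 2 lay within the WT control range. The log2 fold change was -1.39 (SE 0.69, adjusted p = 0.261) in WT, -2.13 (SE 0.69, adjusted p = 0.0552) in Sema3b-/- and -1.76 (SE 0.49, adjusted p = 0.018) over both. Acta1 passed in Sema3b-/- in 6 alternative settings, with an adjusted p as low as 0.00745.

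Troponin subunits form the calcium switch of the thin filament, and each has a fast and a slow gene. The slow and cardiac troponin C gene Tnnc1, which binds calcium, stood at 767, 678, 547 and 707 in WT control and 679.8, 307, 879.8 and 279 in Sema3b-/- control. In arthritis it stood at 1233, 468, 94.3, 61.2 and 168 in WT and 92, 37, 474, 117 and 177 in Sema3b-/-, so that WT arthritis replicate 1 was the highest of all 18 libraries and the groups overlapped. Over both genotypes Tnnc1 fell by 1.73 on the log2 scale (SE 0.57, adjusted p = 0.0398). Fast troponin C, Tnnc2, had values of -0.66 (SE 0.83) in WT and -1.77 (SE 0.83) in Sema3b-/-, and the WT value was 0.07 without WT arthritis replicate 3. Troponin I, the inhibitory subunit, gave -0.83 (SE 0.81) and -1.74 (SE 0.81) for the fast gene Tnni2 and -1.17 (SE 0.85) and -1.78 (SE 0.85) for the slow gene Tnni1. Troponin T, which anchors the complex to tropomyosin, gave -0.74 (SE 0.84) and -1.47 (SE 0.84) for the fast gene Tnnt3 and -0.65 (SE 0.78) and -1.01 (SE 0.78) for the slow gene Tnnt1. None of these 5 passed in any of the 3 arthritis comparisons. Without WT arthritis replicate 3 Tnnt3 turned to 0.02 in WT.

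Thick filament genes held 6 of the 15 calls, those of Myh7, Myh4, Myl2, Myl3, Mylpf and Myom2, among 12 members. Leaving out Myh7, which the filter chose by its control levels, they were Myh4, Myl2, Myl3, Mylpf and Myom2. Over both genotypes 10.9% of all tested genes were called lower. Myh7 encodes the myosin heavy chain of slow fibres, and it was the least abundant member with 0 to 17 reads per library, so it passed the filter only through control libraries. Myh7 stood at 18.8, 9.93, 12.2 and 11.1 in WT control, 8.09, 5.03, 17.8 and 6 in Sema3b-/- control, 4.44, 1.74, 0, 0.851 and 3.17 in WT arthritis and 5.18, 0, 7.04, 0.871 and 2.78 in Sema3b-/- arthritis. In WT every arthritis library lay below every control library, and in Sema3b-/- the groups overlapped. A level of 0 in WT arthritis replicate 3 and Sema3b-/- arthritis replicate 2 allows up to 3.45 and 2.84 normalized counts, which covers counting error only. The log2 fold change of Myh7 was -2.40 (SE 0.67) in WT, -1.51 (SE 0.67) in Sema3b-/- and -1.96 (SE 0.48) over both, given without a p because the filter chose it by its control levels.

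Myl3 and Myl2 encode the essential and the regulatory light chain of slow fibre myosin. Myl3 stood at 79.6, 81.2, 70.4 and 99.8 in WT control, 44.5, 45.3, 96.2 and 32.4 in Sema3b-/- control, 47.3, 38.4, 2.3, 0.851 and 15.8 in WT arthritis and 14.3, 0.948, 52.3, 18.3 and 4.86 in Sema3b-/- arthritis. The WT arthritis libraries were all below the WT controls, with replicates 3 and 4 resting on 2 reads and 1 read. Its log2 fold change was -2.86 (SE 0.95, adjusted p = 0.0992) in WT, -2.19 (SE 0.95, adjusted p = 0.142) in Sema3b-/- and -2.52 (SE 0.67, adjusted p = 0.0135) over both. Myl2 stood at 1159, 999.9, 639.8 and 1282 in WT control, 429, 434, 778 and 829.9 in Sema3b-/- control, 525, 1025, 89.7, 71.4 and 175 in WT arthritis and 122, 19, 549.8, 119 and 59.7 in Sema3b-/- arthritis. Here WT arthritis replicate 2 and Sema3b-/- arthritis replicate 3 reached the control levels. Myl2 had log2 fold changes of -2.11 (SE 0.86, adjusted p = 0.174), -2.56 (SE 0.86, adjusted p = 0.0638) and -2.34 (SE 0.61, adjusted p = 0.0132) in the same order.

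The fast light chains Mylpf, the regulatory one, and Myl1, the essential one, had groups without overlap in Sema3b-/- forepaws and overlapping groups in WT. Mylpf stood at 15454, 16904, 11041 and 16617 in WT control, 13279.8, 17891, 24092 and 26707 in Sema3b-/- control, 18893, 22391, 1515, 6180.1 and 8906 in WT arthritis and 7774, 842, 9251, 5416 and 4277 in Sema3b-/- arthritis. WT arthritis replicates 1 and 2 were above every WT control library, and all 5 Sema3b-/- arthritis libraries were below every Sema3b-/- control library. For Mylpf the log2 fold change was -0.87 (SE 0.74, adjusted p = 0.523) in WT, -2.21 (SE 0.74, adjusted p = 0.0635) in Sema3b-/- and -1.54 (SE 0.52, adjusted p = 0.0453) over both. Myl1 stood at 31580.0, 34109.9, 2498, 7657 and 11671 in WT arthritis and 10392, 1371, 14331, 8032 and 7181 in Sema3b-/- arthritis. Its control libraries ran from 17664 to 36996 normalized counts, and WT arthritis replicates 1 and 2 lay above every WT control library while replicates 3, 4 and 5 and all Sema3b-/- arthritis libraries lay below that range. Its values were -0.83 (SE 0.73, adjusted p = 0.532) in WT and -2.07 (SE 0.73, adjusted p = 0.0742) in Sema3b-/-.

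Among the heavy chains of fast fibres, Myh4 (type IIb) fell over both genotypes, and Myh1 (IIx) and Myh2 (IIa) did not pass. Myh4 stood at 5018, 3869, 2988 and 2478 in WT control, 2966, 4829, 5752 and 13949.5 in Sema3b-/- control, 1054, 3842, 170.2, 1189 and 1286 in WT arthritis and 3701, 283, 1698, 2166 and 864 in Sema3b-/- arthritis. Sema3b-/- control replicate 4 was the highest library, and Sema3b-/- arthritis replicate 1 and WT arthritis replicate 2 lay within their control ranges. The log2 fold change of Myh4 was -1.77 (SE 0.81, adjusted p = 0.224) in WT, -2.19 (SE 0.81, adjusted p = 0.0891) in Sema3b-/- and -1.98 (SE 0.57, adjusted p = 0.0225) over both. Over both genotypes Myh1 was at -0.92 (SE 0.53, adjusted p = 0.219) and Myh2 at -1.47 (SE 0.52, adjusted p = 0.0523). The last 500 bases of these transcripts share identical runs of 121 bases (Myh1 and Myh2) and 83 bases (Myh4 with either), so reads from them may have been assigned to the wrong one. The 8 fast and slow partners described here share at most 25 bases in a row. Myom2, an M-band protein that ties thick filaments together, stood at -1.75 (SE 0.59, adjusted p = 0.0412) over both genotypes. Myosin-binding protein C had values of -1.22 (SE 0.54) for its fast gene Mybpc2 and -1.07 (SE 0.55) for its slow gene Mybpc1 and did not pass.

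Csrp3 encodes muscle LIM protein, a Z-disc protein that responds to stretch. Csrp3 stood at 1972, 1944, 1239 and 1727 in WT control, 1999, 911, 2143 and 2812 in Sema3b-/- control, 2534, 1564, 216, 242 and 282 in WT arthritis and 272, 79.6, 811, 329 and 615 in Sema3b-/- arthritis. In WT arthritis replicates 1 and 2 lay within or above the control range, and replicates 3, 4 and 5 far below it. All Sema3b-/- arthritis libraries were below all Sema3b-/- controls, and Csrp3 fell there by 2.49 on the log2 scale (SE 0.77, adjusted p = 0.0485). Its value in WT was -1.58 (SE 0.77, adjusted p = 0.255), and over both genotypes -2.03 (SE 0.55, adjusted p = 0.0157). The Sema3b-/- call ended without any 1 of 12 libraries, with an adjusted p of 0.0537 to 0.109. These were every WT control, Sema3b-/- control replicates 1, 3 and 4, WT arthritis replicate 5, and all Sema3b-/- arthritis replicates but replicate 3. Over all 30 alternatives the call ended in 18, with an adjusted p of up to 0.153.

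Ldb3, which holds the Z-disc together, and Actn2, the alpha-actinin that cross-links actin there, fell over both genotypes, by 1.76 (SE 0.51) and 1.65 (SE 0.54) on the log2 scale. In Sema3b-/- forepaws Ldb3 stood at 1258, 1362, 2357 and 4761 in control and 783, 115, 848, 597 and 428 in arthritis, without overlap, and at -2.20 (SE 0.73, adjusted p = 0.0604). In WT its level was 1659, 1789, 1176 and 1745 in control and 1196, 2099.6, 125, 494 and 638 in arthritis, where replicate 2 was above every control. The other 5 members of this group were Actn3, Ttn, Des, Myoz1 and Tcap, and none passed in any comparison. Ttn, the giant spring protein of the sarcomere, was nearest to 0 over both genotypes at -0.47 (SE 0.58, adjusted p = 0.582), and it was 0.08 without both libraries low in muscle genes. Ttn reached 16903 and 13690.1 normalized counts in WT arthritis replicates 1 and 2, above the control range of 2666 to 10432.

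Among calcium handling genes Atp2a2 was the 1 of 6 that passed, and it passed in WT, in Sema3b-/- and over both. Of all tested genes 1.58%, 5.55% and 10.9% were called lower in the same order. Atp2a2 (chr5:122453513-122502225, minus strand, 20 exons) encodes SERCA2, the calcium pump of slow fibres and heart, a form of which is also present in other cell types. Atp2a2 stood at 1389, 1361, 1384 and 1396 in WT control, 1639, 1348, 1435 and 1888 in Sema3b-/- control, 903, 1168, 1104, 870.1 and 985 in WT arthritis and 924, 1112, 1051, 1268 and 1110.0 in Sema3b-/- arthritis. The highest arthritis library, Sema3b-/- replicate 4, was below the lowest control library, Sema3b-/- replicate 2. The log2 fold change was -0.47 (SE 0.12, adjusted p = 0.0376) in WT, -0.52 (SE 0.12, adjusted p = 0.0107) in Sema3b-/- and -0.50 (SE 0.09, adjusted p = 0.000696) over both. WT arthritis replicate 3 and Sema3b-/- arthritis replicate 2, the libraries lowest in nearly all other members, were the second highest of their groups in Atp2a2. The macrophage marker list, 7 of 8 genes in the table, took 0.0341 to 0.0615% of counts in control libraries, and in arthritis 0.0451 to 0.105% (WT) and 0.0745 to 0.121% (Sema3b-/-), and the part of other cells in the Atp2a2 level was not tested.

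The WT call for Atp2a2 ended without any 1 of 8 libraries (all of WT control, replicates 1, 4 and 5 of WT arthritis, and replicate 5 of Sema3b-/- arthritis), with an adjusted p of 0.0508 to 0.107. It also ended with sex as a term (adjusted p = 0.202), with the title word as a term (0.0661), in a fit of the 2 groups alone (0.0641) and without both libraries low in muscle genes (0.0553). In Sema3b-/- the call held in all 30 alternatives run, with an adjusted p of at most 0.0454, and over both genotypes in all 29, with at most 0.00648.

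**Figure D4:**
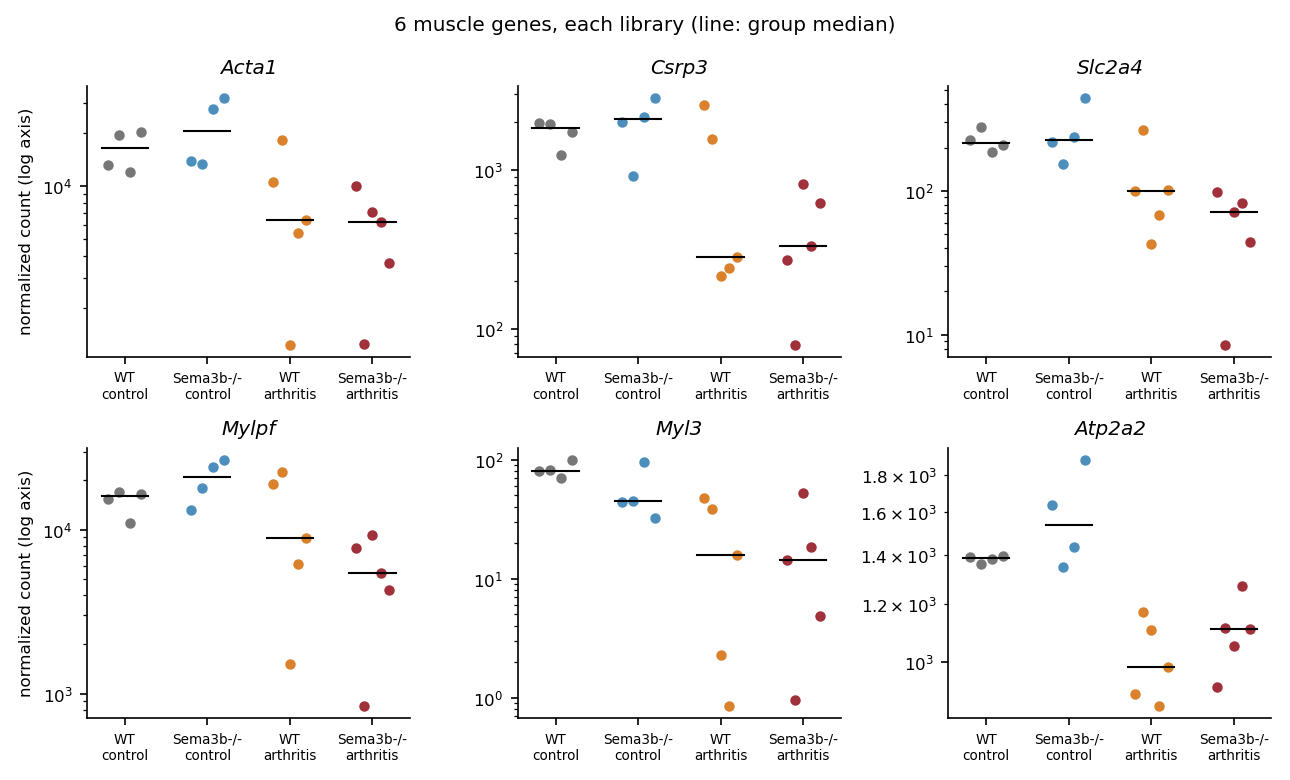
Normalized count (y axis, log scale) of 6 muscle genes in each library (points) by group (x axis), with the group median as a line. The 10 arthritis libraries of Atp2a2 lie between 870.1 and 1268, below all 8 controls at 1348 to 1888, whereas the other genes each have at least 1 arthritis library within or above the range of the controls.

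The fast pump gene Atp2a1, SERCA1, stood at 37178, 54192, 3282, 17031 and 22763 in WT arthritis and 35439, 3918, 24909, 25156 and 12666 in Sema3b-/- arthritis, against 32427 to 105416 over all controls. Its log2 fold changes were -1.05 (SE 0.74, adjusted p = 0.425) in WT and -1.69 (SE 0.74, adjusted p = 0.149) in Sema3b-/-. Casq1, the calcium store protein calsequestrin of fast fibres, had no overlap in Sema3b-/- forepaws, with 1319, 2415, 4210.0 and 5579 in control and 1294, 124, 985, 1172 and 503 in arthritis, and a value of -2.24 (SE 0.79, adjusted p = 0.0774). The remaining 3 genes, Pvalb, Ryr1 and Cacna1s, were not called, with log2 fold changes over both genotypes of -1.21, -0.61 and -0.76.

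Slc2a4 encodes GLUT4, the insulin-responsive glucose transporter of muscle and fat. Slc2a4 stood at 224, 277, 187 and 208 in WT control, 218, 154, 236 and 440.1 in Sema3b-/- control, 99.1, 266, 42.5, 68 and 101 in WT arthritis and 98.5, 8.53, 71.4, 81.9 and 43.8 in Sema3b-/- arthritis. All Sema3b-/- arthritis libraries lay below every Sema3b-/- control, while WT arthritis replicate 2 lay within the WT control range. Slc2a4 fell by 2.35 in Sema3b-/- (SE 0.60, adjusted p = 0.0198) and by 1.78 over both genotypes (SE 0.42, adjusted p = 0.00764), and was at -1.21 (SE 0.60, adjusted p = 0.257) in WT. Without Sema3b-/- control replicate 4 the Sema3b-/- call was lost (adjusted p = 0.0557). It was lost in 4 of all 30 alternatives, with an adjusted p of up to 0.0679. Because fat also uses GLUT4, the share of 6 adipocyte markers is given beside it, which was 0.132 to 0.209% (WT) and 0.0673 to 0.118% (Sema3b-/-) in control libraries, and 0.0480 to 0.191% (WT) and 0.0455 to 0.147% (Sema3b-/-) in arthritis libraries. Their part in the result was not tested.

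Yipf7, a membrane protein gene of the YIP family, had the most negative value of all 42 members in Sema3b-/- forepaws. Yipf7 stood at 192, 192, 139.8 and 161 in WT control, 247, 127, 214 and 329.8 in Sema3b-/- control, 186, 206, 11.5, 47.6 and 59.6 in WT arthritis and 64.8, 4.74, 70.4, 44.4 and 49.3 in Sema3b-/- arthritis. The Sema3b-/- groups did not overlap, and in WT arthritis replicate 1 lay within and replicate 2 above the WT control range. Yipf7 fell by 2.59 in Sema3b-/- (SE 0.79, adjusted p = 0.0427) and by 1.96 over both genotypes (SE 0.56, adjusted p = 0.0195), and was at -1.33 (SE 0.79, adjusted p = 0.341) in WT. The Sema3b-/- call ended without any 1 of 12 libraries (adjusted p 0.0507 to 0.0964), namely every WT control, replicates 1, 3 and 4 of Sema3b-/- control, replicates 4 and 5 of WT arthritis, and 2, 4 and 5 of Sema3b-/- arthritis. Over all 30 alternatives it ended in 16, with an adjusted p of up to 0.133.

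Mb, myoglobin, which stores oxygen in oxidative fibres, had 19132, 24521, 17778 and 22387 normalized counts in WT control and 26713, 21332, 1567, 3462 and 7692 in WT arthritis. Sema3b-/- libraries held 19288, 12958, 24327 and 26372 in control and 7807, 703, 12995, 7202 and 4147 in arthritis, where replicate 3 just reached the control range. Mb was at -1.79 (SE 0.59, adjusted p = 0.0412) over both genotypes. Ckm (muscle creatine kinase), Pygm (muscle glycogen phosphorylase) and Eno3 (muscle enolase) were at -1.11, -1.39 and -1.51 over both and were not called. Of these 3, Pygm and Eno3 had no overlap in Sema3b-/- forepaws.

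Fast and slow isoforms were compared within each library as the log2 of (fast + 1) over (slow + 1) normalized counts, in 8 pairs and 4 comparisons, with two-sided exact permutation tests adjusted over the 32 tests. None passed after adjustment (lowest adjusted p = 0.229). Between control groups all 8 pairs were higher in Sema3b-/-, with differences of 0.21 to 1.31 and a median of 0.97, which was 0.54 without Sema3b-/- control replicate 4. The largest difference, of Myh4/Myh7, rested on 2 to 15 reads of Myh7 in the Sema3b-/- control libraries. In 3 pairs the 2 control groups did not overlap. Sema3b-/- control libraries share their replicates across all 8 pairs, so these are not 8 separate observations.

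For Mylpf/Myl2 the log2 ratio was 3.74, 4.08, 4.11 and 3.69 in WT control and 4.95, 5.36, 4.95 and 5.01 in Sema3b-/- control, a difference of 1.16. Myl1/Myl3 had 8.01, 8.15, 7.95 and 7.86 against 8.74, 8.99, 8.43 and 10.11, a difference of 1.08. Tnni2/Tnni1 had 4.10, 4.22, 3.99 and 3.81 against 4.87, 5.01, 4.75 and 6.06, a difference of 1.14. Each of these 3 gave an exact permutation p of 0.0286, the smallest that 4 libraries against 4 allow, and an adjusted p of 0.229. Among female libraries alone, 2 against 4, the same 3 pairs had groups without overlap (differences 1.07, 1.44 and 1.43), where the smallest p possible is 0.133. Of the single genes, all 8 fast isoforms were positive (median 0.38) and 6 of 8 slow isoforms negative (median -0.53) in Sema3b-/- control against WT control, and none was called. The 6 include Myh7, which the filter chose largely by its WT control levels. The 2 male Sema3b-/- control libraries also held 4.01 and 4.48% of the 7 bone markers, against 0.325 to 1.19% in the other control libraries, and the part of sex or of tissue makeup in the ratios was not tested.

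In WT arthritis 5 of 8 ratios were higher than in WT control (range -0.59 to 2.03, median 0.49). That median was 0.86 without WT arthritis replicate 3, 0.17 without replicate 2, 0.25 without replicate 4, and 0.13 with 5 in place of 1 added to each count. Myl1/Myl3 stood at 9.35, 9.76, 9.57, 12.01 and 9.44 in WT arthritis, above every WT control library, with a difference of 2.03 (exact permutation p = 0.0159, adjusted p = 0.229). Mylpf/Myl2 stood at 5.17, 4.45, 4.06, 6.41 and 5.66, a difference of 1.25 (exact permutation p = 0.0476, adjusted p = 0.305), with replicate 3 within the control range. Without WT arthritis replicate 3 and Sema3b-/- arthritis replicate 2, Mylpf/Myl2, Myl1/Myl3 and Tnnc2/Tnnc1 had no overlap in WT, with differences of 1.52, 2.15 and 1.34. Mybpc2/Mybpc1 was -0.08 and became 0.49 without WT arthritis replicate 1, whose ratio of -4.86 was the lowest of all libraries. Atp2a1/Atp2a2 was -0.59, and 0.08 without WT arthritis replicate 3, which stood at 1.57. Myh4/Myh7 was 0.62 and rested on 0 to 5 reads of Myh7 in the WT arthritis libraries. With 5 in place of 1 added to each count it was -0.40.

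In Sema3b-/- forepaws 4 of 8 ratios were higher in arthritis, with a range of -1.16 to 0.35 and a lowest unadjusted exact permutation p of 0.127. Atp2a1/Atp2a2 was the lowest difference, at 4.31, 4.71, 5.39 and 5.80 in control and 5.26, 1.82, 4.57, 4.31 and 3.51 in arthritis, and it was -0.64 without both libraries low in muscle genes. Between Sema3b-/- arthritis and WT arthritis 6 of 8 were higher (range -0.84 to 0.83, lowest unadjusted exact permutation p = 0.230), and 2 of 8 were higher without both libraries low in muscle genes. The difference of these shifts between genotypes was not tested.

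**Figure D5:**
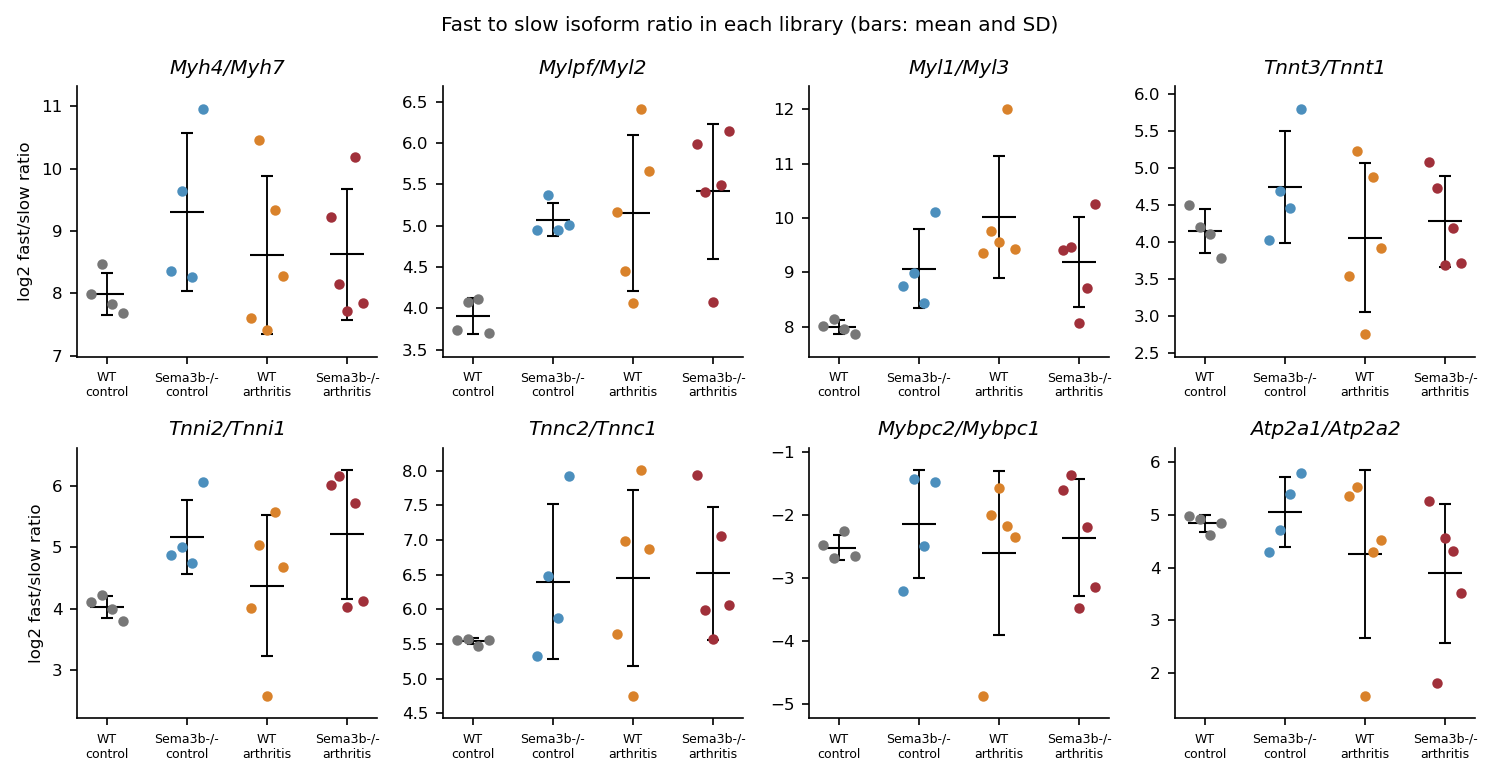
Log2 ratio of the fast to the slow isoform (y axis) in each library (points) for 8 gene pairs (panels) by group (x axis), with mean and SD. WT control points are tightly grouped, for example 5.47 to 5.58 in Tnnc2/Tnnc1, and the Sema3b-/- control points of Mylpf/Myl2, Myl1/Myl3 and Tnni2/Tnni1 lie above all WT control points.

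Each gene was also set against the median of the 42 in its own library, which removes a shift that all muscle genes share. The genes at that median can change too, so 0 on this scale need not be the middle of the 42. In WT, arthritis minus control on this log2 scale ran from -2.10 (Myl3) to 0.29 (Atp2a2) over the 8 slow isoforms. Of these, Myh7 stood at -1.64, Myl2 at -1.35, Tnnc1 at -0.81, Tnni1 at -0.41, Mybpc1 at -0.08 and Tnnt1 at 0.11. The 8 fast isoforms ran from -1.01 (Myh4) to 0.10 (Tnnc2), and all but Myh4 and Atp2a1 stood at -0.16 or above. In Sema3b-/- the most positive values were 1.14 for Atp2a2 and 1.14 for Ttn, and the most negative were -0.93 for Yipf7 and -0.90 for Myl2. Between control groups, Sema3b-/- minus WT was -1.40 for Tnni1, -1.20 for Myl2, -1.15 for Myl3 and -1.02 for Myh7, the 4 most negative of the 42. Most of the 42 were negative on this scale between controls. The log2 fold changes of these 4 in the limma fit were -0.95, -0.75, -0.70 and -0.56, beside a members' median of 0.22. Myh7 reached 10 only in WT control replicates 1, 3 and 4 and Sema3b-/- control replicate 3. The filter therefore chose Myh7 largely by its WT control levels. The values on this scale are descriptions of group means with no test.

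Muscle genes outside the 42 were counted in 4 further lists. Of 23 other sarcomere genes tested, 0 were called in WT, and in Sema3b-/- 2 fell (5.55% of all tested genes were called lower) and 1 rose. Actc1, the actin of heart and developing muscle, fell by 3.38 (SE 0.73, adjusted p = 0.00883) in Sema3b-/-, from 52.6, 688, 647 and 260.2 normalized counts in control to 27.2, 4.74, 60.3, 27.9 and 48.6 in arthritis. It stood at 64.1, 90.2, 51.6 and 94.6 in WT control, so that Sema3b-/- control replicates 2 and 3 were the highest, and Sema3b-/- control replicate 1 lay within the range of arthritis. Myl6b, a slow and non-muscle light chain, fell by 2.29 (SE 0.52). Tpm3, the tropomyosin of slow fibres that is also made outside muscle, rose by 0.59 (SE 0.15, adjusted p = 0.0192). This call ended without Sema3b-/- control replicate 1 or Sema3b-/- arthritis replicate 2 (adjusted p 0.0503 and 0.0533), and in 4 of all 30 alternatives (up to 0.0769).

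In Sema3b-/-, where 5.55% of all tested genes were called lower, 1 of 18 other genes of excitation and calcium release fell, the synaptophysin-like protein of the triad Sypl2, at -2.35 (SE 0.68, adjusted p = 0.0356). Its call ended without Sema3b-/- control replicates 1, 3 or 4 or Sema3b-/- arthritis replicates 2 or 5 (adjusted p up to 0.0858). Over all 30 alternatives it ended in 8 (up to 0.114). Srl (sarcalumenin) and Art1 (a muscle ADP-ribosyltransferase) had values of -1.89 (SE 0.61, adjusted p = 0.0542) and -1.63 (SE 0.54, adjusted p = 0.0595). Of 18 other metabolic genes 3 fell, Gpd1 (glycerol phosphate dehydrogenase) by 1.51 (SE 0.36), Ak1 (adenylate kinase) by 1.04 (SE 0.26) and Adssl1 (muscle adenylosuccinate synthase) by 1.23 (SE 0.39). The Ak1 call ended without Sema3b-/- control replicates 3 or 4 (adjusted p up to 0.0576) and that of Adssl1 without any 1 of 13 libraries (up to 0.136). Over all 30 alternatives these calls ended in 3 and 16. Of 12 muscle transcription factor and satellite cell genes 1 fell, the muscle cadherin Cdh15, at -2.28 (SE 0.55, adjusted p = 0.0131), from 16.2, 109, 139 and 18 in Sema3b-/- control to 7.77, 8.53, 5.03, 11.3 and 13.2 in arthritis. Its call ended without Sema3b-/- control replicate 3 (adjusted p = 0.0520), and in 2 of all 29 alternatives (up to 0.0609). Myf6, a myogenic transcription factor, was at -1.36 (SE 0.60, adjusted p = 0.146).

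In WT 0 genes of these 4 lists were called by limma, against 1, 2, 1 and 1 with an unadjusted p under 0.05 in the order given. The share of all tested genes under that unadjusted level was not counted. Over both genotypes 7 of 23 sarcomere genes fell and 1 rose, and 6 of 18, 9 of 18 and 1 of 12 fell in the other lists, where 10.9% of all tested genes were called lower. Medians over both genotypes were -0.97, -0.90, -1.02 and -0.32.

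The authors' deposited table for Sema3b-/- arthritis against Sema3b-/- control lists 4 of the 42 genes with an adjusted p under 0.05, where 7.00% of genes with an adjusted p pass. They are Ldb3 (log2 fold change -2.14, adjusted p = 0.0458), Atp2a2 (-0.53, 0.0288), Slc2a4 (-2.11, 0.0304) and Yipf7 (-2.30, 0.0424), so the authors' deposited table and the limma fit share 3. For WT the authors' deposited table has an adjusted p for 40 of the 42, all but Myh7 and Myl3, and 0 of these 40 pass (4.84% of genes pass), with a lowest adjusted p of 0.0575 (Atp2a2). The log2 fold change in the authors' deposited table for WT is positive for 6 members, Ttn, Neb, Myom1, Ryr1, Myoz1 and Tnnc2. In the authors' deposited tables of the 2 genotype comparisons 0 of 42 pass. There 0.0108% of all genes pass between arthritis groups and 0% between controls.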

How the data were processed

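RNA was taken from mouse forepaws with RNeasy and sequenced as CEL-seq libraries on a NextSeq500, per the labels' protocols. The submitters' processing notes name BWA, mm10 and DESeq2 1.32, with no role or order, and they do not say how reads were counted per gene or whether strand was used. The deposited table holds a signal per gene, read counts that the authors divided by 1 size factor per library, and whole reads could be recovered from it (within 0.02 of a read, 100% of values in each library). The authors' deposited tables also hold log2 fold changes, p-values, and standard errors and test statistics entered as score columns. The text calls the deposited signal a normalized count.

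All 18 libraries were fitted together with limma 3.58.1 (R 4.3.3; trend and robust variance) on log2(normalized count + 1) as 4 group means, for the 13809 genes at 10 or more in at least 4 libraries. P-values were adjusted by Benjamini-Hochberg over all of them, with a threshold of 0.05. A fold change on this scale understates changes of low genes. Fast to slow ratios were tested by exact permutation. The fit was tested on simulated data with the same spread setting for all genes and groups, unlike the muscle genes here. Alternatives were edgeR 4.0.16 and DESeq2 1.42.0 on the recovered reads, TMM scaling, other pseudocounts and filters, only the groups compared, terms for sex, title word or replicate number, and leaving out each library. The title word term set WT arthritis replicate 5 and Sema3b-/- arthritis replicates 1 and 2 against all others. It does not separate MI from Joint titles. Leaving out both libraries lowest in muscle RNA was chosen after seeing the data. Depth per library was 1732783 to 19464892 reads, and floors of 3 reads cover counting error only. Positions are from GENCODE on GRCm38. The genes named are all fast and slow partners, Myh1, Myh2, every called member, the 10 members with the lowest p in either arthritis comparison, and the 3 genes of each further list with the lowest p in Sema3b-/-, of which 1 is not reported here. Members shown for other reasons (Ttn, Des, Myoz1, Tcap, Actn3, Pvalb, Ryr1, Cacna1s, Ckm, Pygm, Eno3) were chosen after their values were seen. The members and lists were chosen with earlier results of these data known.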

Additional observations from a re-analysis of the deposited data

Results flagged for a closer look

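Among 168 sets of 1 gene in 1 group, 8 had a library far from the others by Dixon's criterion, as did 3 of 32 sets of ratios and 0 of 4 sets of shares; chance alone gives about 1 in 20. In control, Actn3 (fast fibre alpha-actinin) stood at 1117 normalized counts in WT replicate 1 against 648 to 727 in the others. Casq1 stood at 2302 in the same library against 1684 to 1724. Tnni1 stood at 463 in Sema3b-/- control replicate 3 against 241 to 254, and Myom2 at 338 in Sema3b-/- control replicate 4 against 36.4 to 83.8.

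In arthritis, Tnnt1 stood at 3757 normalized counts in WT replicate 1 against 236 to 1065. WT replicate 2 held 849.6 of Mybpc2 against 49.4 to 240.2, and 266 of Slc2a4 against 42.5 to 101. Myl2 stood at 549.8 in Sema3b-/- arthritis replicate 3 against 19.0 to 122.

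Of the log2 ratios, Mylpf/Myl2 was 5.36 in Sema3b-/- control replicate 2 against 4.95 to 5.01. Myl1/Myl3 was 12.01 in WT arthritis replicate 4, where Myl3 had 1 read, against 9.35 to 9.76. Mybpc2/Mybpc1 was -4.86 in WT arthritis replicate 1 against -2.35 to -1.58, and that library also had the largest mitochondrial share, 39.4% of counts.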

How the results depend on the processing

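Of the values of single genes under the alternatives, 4448 kept their direction and side of the threshold, 204 lost it, 95 gained it and 40 reversed; of the pair ratios 350 kept their direction and 10 reversed. The number of muscle genes called in WT was 2 with edgeR, with 5 added to each count or with no filter, 0 in the 2 groups alone, with sex, with title word or without both libraries low in muscle RNA, and 0 to 2 on leaving out 1 library. With edgeR, with 5 added or with no filter it was 1 without Myh7, which passed the main filter only through controls. In Sema3b-/- it was 15 with DESeq2, 2 with no filter, 1 in the 2 groups alone or with title word, 8 without both low libraries, and 1 to 12 on leaving out 1. Over both genotypes it was 9 with sex, 4 with title word and 9 to 23 on leaving out 1. Without Myh7 it was 8 with sex and 3 with title word. With the replicate number as a block the counts were 0 in WT, 1 in Sema3b-/- and 4 over both, or 3 over both without Myh7. The numbers did not pair the libraries, since 7 of 25 same-number pairs correlated over 0.1 (range -0.658 to 0.414) and 3 of 18 libraries correlated best with their own number. The counts between genotypes and for the interaction were 0 in every alternative run. The share of all genes called in each alternative is not given here, so a larger count is not by itself a stronger muscle result.

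Fast to slow ratios higher in Sema3b-/- arthritis numbered 2 with 5 added, 1 with Joint titles only and 1 to 5 on leaving out 1 library; between arthritis groups they numbered 2 with Joint titles only or without both low libraries and 2 to 6 on leaving out 1. In WT, 5 to 7 were higher on leaving out 1, and between controls 7 to 8.

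Single genes that reversed did so in WT, apart from Ttn over both genotypes, at 0.0790 without both low libraries. Without replicate 3 of WT arthritis, or both low libraries, the WT values were 0.0206 for Tnnt3, 0.0747 for Tnnc2, 0.224 for Actn3, 0.199 for Ttn, 0.0639 for Neb, 0.221 for Des, 0.152 for Myom1, 0.1002 for Myoz1, 0.153 for Pvalb, 0.160 for Ryr1 and 0.0336 for Cacna1s. With edgeR and DESeq2 they were 0.0246 and 0.0192 for Tnnc2, 0.00913 and 0.000347 for Actn3, 0.362 and 0.358 for Ttn, 0.208 and 0.203 for Neb, 0.152 and 0.148 for Myom1, 0.0594 and 0.0534 for Myoz1, and 0.0838 and 0.0791 for Ryr1. With sex as a term Ttn was at 0.0541, Myom1 at 0.142 and Ryr1 at 0.0783. Myh4/Myh7 was -0.399 with 5 added. Tnnt3/Tnnt1 was 0.235 without WT arthritis replicate 3 or both low libraries, 0.0266 without WT control replicate 1 and 0.0398 without WT arthritis replicate 1. Mybpc2/Mybpc1 was 0.00733 without WT control replicate 3 and 0.489 without WT arthritis replicate 1. Atp2a1/Atp2a2 was 0.0839 without WT arthritis replicate 3 or both low libraries, and between controls -0.0406 without Sema3b-/- control replicate 4. On leaving out 1 library, the lowest value in WT was -1.17 for Tnnt3, -1.07 for Tnnc2, -1.21 for Actn3, -0.914 for Ttn, -1.05 for Neb, -0.581 for Des, -0.752 for Myom1, -1.002 for Myoz1, -0.898 for Pvalb, -0.871 for Ryr1, -1.07 for Cacna1s, -0.383 for Tnnt3/Tnnt1, -0.333 for Mybpc2/Mybpc1 and -0.907 for Atp2a1/Atp2a2, and the highest for Atp2a1/Atp2a2 between controls was 0.458. The cause was not tested. Depth limits Myh7 and Myl3 most, with 0 to 17 and 1 to 117 reads per library.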
